A study of Homo sapiens with 26 samples.

Results

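The loci described here are those of 10 genes that govern blood cell formation: TAL1, GATA2, KIT, MYB, IKZF1, LMO2, SPI1, ETV6, CEBPA and RUNX1. They were chosen by position, as the 100 kb bins of the human genome (hg19) that overlap each gene, and make up 20 of the 26331 bins with signal. Each locus was compared with its flanks, the 10 bins on each side (1 Mb), inside the same cell. The cells were 26 single cells of KBM7, a human leukaemia line with a nearly haploid genome. All came from clone 5-8, were labelled haploid (1N), and carried an unfused Dam that was switched on with 0.5 nM Shield1 for 15 h. They were then sorted one by one from the smallest 2% of cells, those positive for both Fucci (cell-cycle) markers. The series title names lamin B1, but the sample labels and the design text give Dam without a partner, and these were used. The design text counts 124 cells, of which 26 were analysed here. Neither untreated cells nor a Dam fusion were among them. An SD below therefore describes cells of a single clone, which are not replicate cultures, and no p-value was computed.

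Dam is a bacterial enzyme that methylates adenine in the sequence GATC. When it is not tethered to a chromatin protein it marks the DNA it can reach, and accessible DNA is marked more. TAL1, GATA2, LMO2, MYB and RUNX1 are transcription factors or cofactors of blood stem and progenitor cells, and TAL1, LMO2 and a GATA factor bind DNA as one complex. SPI1 and CEBPA direct myeloid differentiation, IKZF1 lymphoid differentiation, and ETV6 is an ETS family repressor needed for blood formation in the bone marrow. KIT is the receptor tyrosine kinase for stem cell factor on blood progenitors and mast cells. RNA was not measured here, so nothing is known from these data about which of the genes the cells express.

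The promoters are shown because Dam can act only where GATC occurs, and the capitals mark that sequence. RefSeq (GRCh38.p14) gave 12 promoter entries for 8 of the 10 genes, and of the 250 bases before each start, GATC (its own reverse complement, so both strands are covered) occurred in 2 entries, once each. Of all 35116 promoters in that table, 35.8% held it. The sequences are those of the locus with the highest level (MYB) and the lowest (KIT), neither of which held the motif, and the 2 entries that did (TAL1 and IKZF1).
MYB (chr6:135181058-135181307, plus strand): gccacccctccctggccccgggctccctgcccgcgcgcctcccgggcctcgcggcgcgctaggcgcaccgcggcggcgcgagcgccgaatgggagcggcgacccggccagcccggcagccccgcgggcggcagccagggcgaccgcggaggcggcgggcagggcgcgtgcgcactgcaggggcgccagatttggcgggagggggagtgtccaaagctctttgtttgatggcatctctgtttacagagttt
TAL1 (chr1:47232336-47232585, minus strand): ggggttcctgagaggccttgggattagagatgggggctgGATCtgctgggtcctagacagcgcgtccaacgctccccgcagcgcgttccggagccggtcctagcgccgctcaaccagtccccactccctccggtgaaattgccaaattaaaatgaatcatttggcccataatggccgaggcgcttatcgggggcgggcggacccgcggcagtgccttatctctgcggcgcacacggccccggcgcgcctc
IKZF1 (chr7:50318798-50319047, plus strand): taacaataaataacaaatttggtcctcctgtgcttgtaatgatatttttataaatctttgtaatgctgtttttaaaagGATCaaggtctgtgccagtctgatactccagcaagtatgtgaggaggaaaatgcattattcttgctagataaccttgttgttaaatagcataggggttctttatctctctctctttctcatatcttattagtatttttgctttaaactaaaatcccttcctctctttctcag
KIT (chr4:54657707-54657956, plus strand): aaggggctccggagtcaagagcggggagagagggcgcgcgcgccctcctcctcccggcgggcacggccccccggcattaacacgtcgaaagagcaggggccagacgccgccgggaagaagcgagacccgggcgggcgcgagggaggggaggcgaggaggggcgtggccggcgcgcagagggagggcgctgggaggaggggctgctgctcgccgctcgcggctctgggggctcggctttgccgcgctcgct
A 100 kb bin therefore reports on sites spread over and around the gene, including neighbouring genes, and not on the promoter alone.

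The deposited value of a bin in a cell is a ratio of observed over expected signal. The level used below is that ratio divided by the mean ratio of all used bins of the cell, so 1 is the average bin of that cell. The level of a locus is the mean over its bins, which count equally whatever share of the gene span they hold. That share was as low as 11.1%, in 1 bin each of KIT and RUNX1. A gene that lies in 1 bin need not fill it. Whole counts recovered from the ratios totalled 20182 to 178941 per cell, or 0.766 to 6.80 per used bin. The 20 bins of the 10 loci held 3215 counts in all, with 11 to 363 per cell (median 108). A single locus in a single shallow cell thus rested on a few counts, and 9 of the 260 values for a locus in a cell were 0, of which 7 were in the 6 cells of lowest coverage. Cell 22 stood apart: 4 of its 10 loci had no count, and several results for the whole group are therefore also given without it.

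As a group the 10 loci were marked above the genome average and above their own neighbourhoods. The mean of the 10 levels was 2.52 ± 0.741 (SD, n = 26 cells), against 1.32 ± 0.190 in the flanks, a 1.91-fold difference. By cell, the mean of the loci had a lowest value of 0.462, a median of 2.46 and a highest of 3.91, against 0.599, 1.34 and 1.63 in the flanks. It was above the flanks in 25 of 26 cells, the exception being cell 22. The difference, loci minus flanks, was 1.20 ± 0.628 in all cells and 1.26 ± 0.577 without cell 22. Medians over the 10 loci were 2.12 for the level and 1.79-fold for locus over flanks. By comparison, the median window over the whole genome had a level between 0.793 and 0.841 for windows of 1 to 4 bins.

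**Figure D1:**
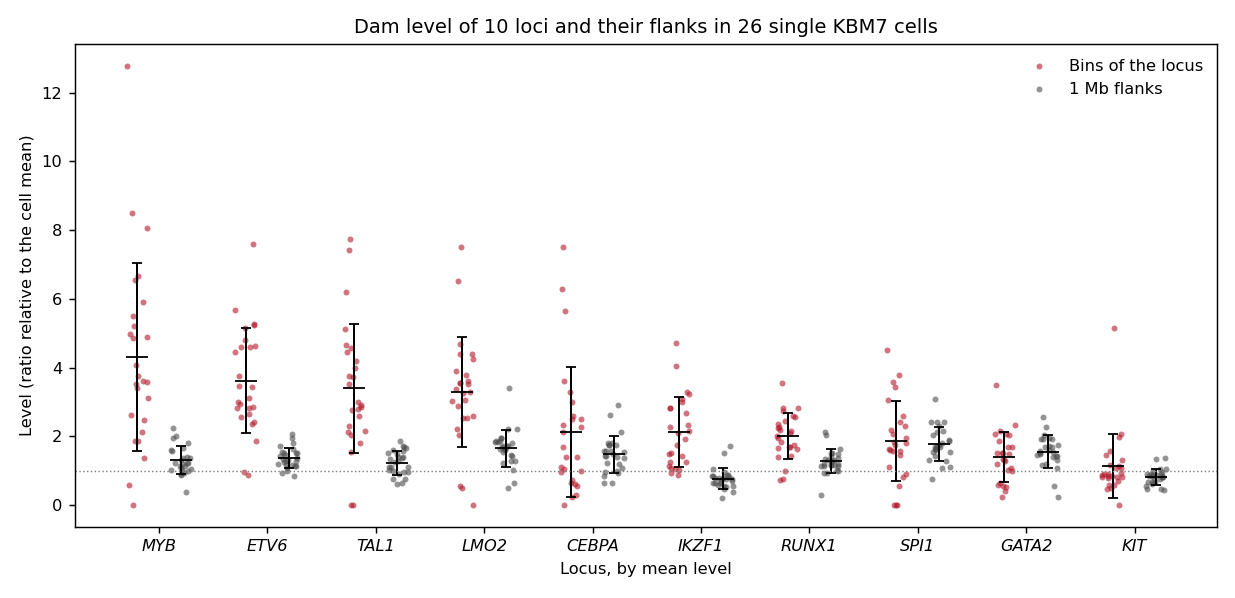
Level of each locus (red) and of its 1 Mb flanks (grey) in 26 cells, on a linear axis where 1 (dotted) is the mean of all used bins of the cell. Points are cells and black bars are the mean ± SD. MYB has the highest mean, 4.30, and KIT the lowest, 1.12, while the means of SPI1 and GATA2 lie close to those of their flanks. The range of cells overlaps that of the flanks at every locus.

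A locus counted as above or below its flanks if 21 or more of the 26 cells (80%) had it there. This placed 6 loci above (ETV6, IKZF1, TAL1, RUNX1, MYB and LMO2), none below, and 4 on neither side (CEBPA, KIT, SPI1 and GATA2). Over all windows of the genome the same rule placed above 2.8% of single bins, 5.44% of 2-bin, 7.74% of 3-bin and 9.56% of 4-bin windows, and below between 16.1% and 18.6%. The mean of the locus exceeded that of its flanks for 9 of 10 loci, where 40.5% of single bins and 42.8% of 4-bin windows did. The 10 genes were picked as known regulators and are few, so these counts describe them and do not test them.

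Among the stem and progenitor factors MYB had the highest mean over the bins of its locus. Bin for bin, the start bin of LMO2 was higher, at 4.71 ± 2.99. MYB, which keeps progenitors dividing, lies wholly in 1 bin (chromosome 6, 135500001 to 135600000) and had the highest level of the 10 loci, at 4.30 ± 2.74 (SD, n = 26). Its cells ran from 0 in cell 22 through a median of 3.68 to 12.8 in cell 10, against 0.374 to 2.24 in the flanks, whose mean was 1.29 ± 0.406. The locus was above its flanks in 23 cells and had the highest level of all 10 loci in 13 cells. The value of cell 10 rested on 13 counts, and without that cell the mean was 3.96. Chromosome 6 as a whole had a level of 1.65 in cell 10, against a mean of 1.02 over cells. Summed over cells, MYB had 251 counts and was 3.39-fold over its flanks (exact 95% interval 2.96 to 3.88, counting error only). Its level exceeded that of 99.8% of all single bins.

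The MYB bin was the top of a slope and not an isolated bin. On the side of lower coordinates the 3 bins next to it had levels of 2.40, 1.78 and 1.58 with growing distance, and on the other side 2.87, 1.61 and 0.652. In RefSeq's gene order HBS1L is the protein-coding gene next to MYB on the first side and AHI1 on the second. Which of them shares a bin with MYB was not determined, because the gene table is of another genome build.

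TAL1, a basic helix-loop-helix factor of blood stem cells and erythroid precursors, lies in 1 bin of chromosome 1 (47600001 to 47700000). Its level was 3.39 ± 1.88, with a lowest value of 0 in cells 21 and 22, a median of 2.96 and a highest value of 7.75 in cell 26, against 1.23 ± 0.354 in its flanks (0.598 to 1.87). It was above its flanks in 24 cells, and the 2 exceptions were the cells with no count. The adjacent bins had levels of 0.747 ± 1.27 on the side of lower coordinates and 1.99 ± 1.58 on the other. The first held only 17 counts, with 15 cells at 0 and an expectation 0.392 times that of the median bin. The second held 99 counts, at 0.858 times. In RefSeq's gene order PDZK1IP1 is next to TAL1 on the first side and STIL on the second. Whether either shares a bin with TAL1 was not determined. The level at TAL1 was above that of 99.1% of all single bins and 98.2% of those on chromosome 1.

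LMO2, the adaptor that joins TAL1 and GATA factors, spans 2 bins of chromosome 11 (33800001 to 34000000) and had a level of 3.29 ± 1.62, against 1.65 ± 0.541 in its flanks. Cells ran from 0 in cell 23 through a median of 3.33 to 7.51 in cell 26, against 0.502 to 3.39 in the flanks, and 22 cells had the locus above. The 2 bins were unlike each other. The bin from 33900001, which holds the start of the gene, averaged 4.71 ± 2.99 and the bin from 33800001 averaged 1.86 ± 1.29, and the first was higher in 21 of 26 cells. The start bin held 352 counts, was positive (a ratio of 1 or more) in 24 cells and lay above 99.8% of all bins. The LMO2 flanks were themselves high, which kept the fold over them at 1.99.

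ETV6 spans more bins than the other loci of high level, MYB, TAL1 and LMO2. Its 3 bins (chromosome 12, 11800001 to 12100000) had levels of 3.52 ± 2.02, 3.97 ± 2.27 and 3.33 ± 2.18, so every bin that overlaps the gene was highly marked. The last of them holds 20% of the gene span. The level of the locus was 3.61 ± 1.53, from 0.871 in cell 23 through a median of 3.27 to 7.61 in cell 13, and was above the flanks (1.36 ± 0.30, 0.854 to 2.08) in 25 cells. No cell lacked counts there, and 762 counts gave a summed level of 3.55 (exact 95% Poisson interval 3.30 to 3.81). It exceeded 99.9% of all 3-bin windows, the highest percentile of the 10 loci.

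The neighbourhood of ETV6 was lopsided. Over 1 Mb the flank of lower coordinates, where RefSeq's order places genes for proline-rich salivary proteins (PRB2, PRB4 and PRB3), averaged 0.912 ± 0.306. The other flank, with BCL2L14, LRP6 and MANSC1 next in order, averaged 1.82 ± 0.546. The locus was above the first in 26 cells and above the second in 24. The bin next to the locus on the second side, from 12100001, still had a level of 2.80 ± 1.5.

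RUNX1, a partner of CBFB that is essential for the first blood stem cells, spans 4 bins of chromosome 21 (36100001 to 36500000). Its level was 2.01 ± 0.662, from 0.718 in cell 10 through a median of 2.05 to 3.56 in cell 2, against 1.27 ± 0.352 in its flanks (0.291 to 2.11). It was above the flanks in 24 cells, at a fold of 1.58. The 2 middle bins stood at 2.48 ± 1.40 and 2.38 ± 1.5. The bin from 36400001, which holds the outer end of the gene span, taken as its start, was at 1.73 ± 0.964. The RefSeq promoter entry of RUNX1 is of another genome build and was not placed in a bin, so a start inside the span was not measured. The bin from 36200001 was higher than that start bin in 19 cells and lower in 6. Measured by the start bin alone, RUNX1 was above its flanks in 18 cells and no longer on a side.

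GATA2, a zinc finger factor that maintains stem cells, was the one locus with a mean below its flanks. Its 2 bins (chromosome 3, 128100001 to 128300000) had a level of 1.40 ± 0.725, against 1.55 ± 0.480 in the flanks, and 11 cells had the locus above while 15 had it below. The sign of that difference, -0.15, turned with the setting: it was 0.12 for the start bin alone, 0.11 against flanks of 2 Mb and 0.13 against the median flanking bin. Cells ran from 0.225 in cell 12 through a median of 1.41 to 3.50 in cell 23, against 0.231 to 2.55 in the flanks, so the 2 distributions overlapped almost wholly. The bin with the start of the gene, from 128200001, averaged 1.67 ± 1.07 and the other bin 1.13 ± 0.936. The level of GATA2 still exceeded that of 78.0% of all 2-bin windows. Its flanks were unequal, with 1.89 ± 0.702 on the side where RefSeq's order places RPN1, RAB7A and ACAD9, and 1.21 ± 0.448 on the other. The highest bin of the region lay in that first flank, from 128800001, at 3.01 ± 1.51.

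**Figure D2:**
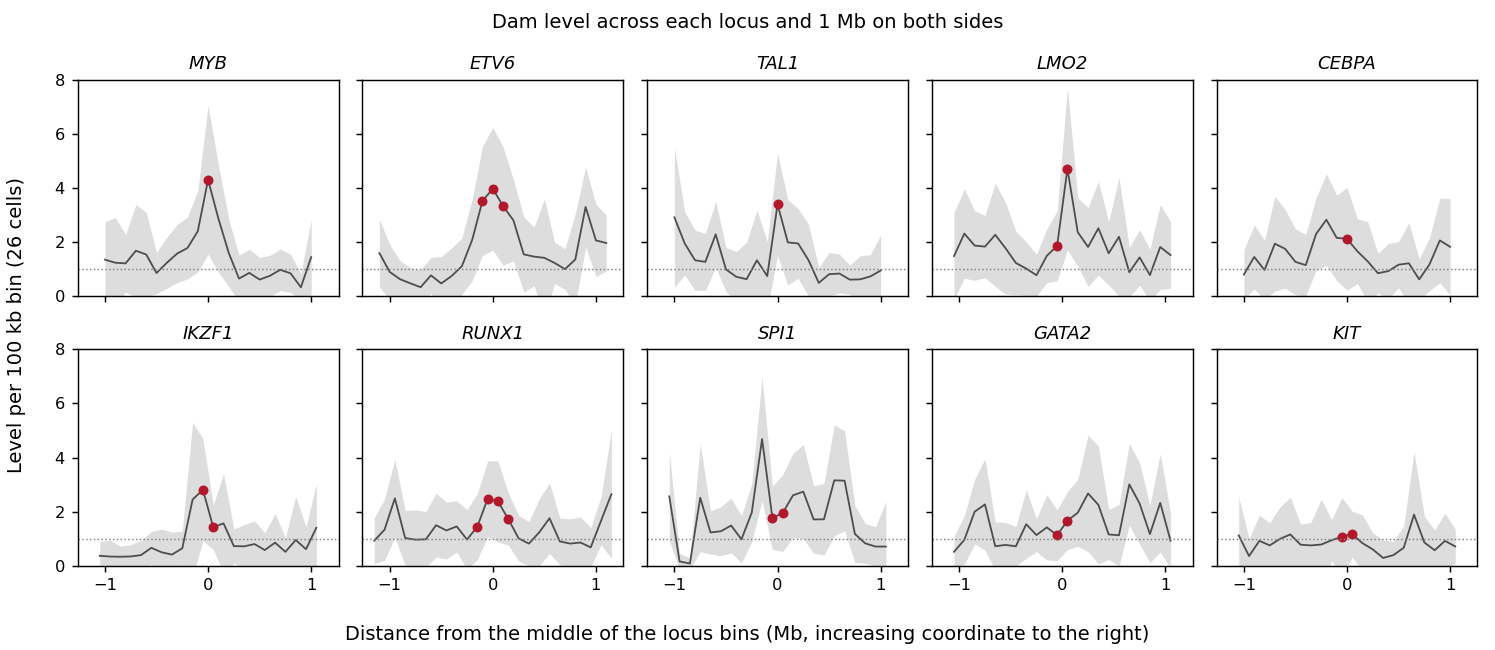
Mean level of each 100 kb bin over 26 cells (line; grey band, ± SD, cut off at 0) against distance in Mb from the middle of the locus, with the bins of the locus in red. A bin of the locus is the highest of the region at MYB, ETV6, TAL1, LMO2 and IKZF1, but not at CEBPA, RUNX1, SPI1, GATA2 and KIT.

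Among the lineage factors IKZF1 stood out from a poorly marked region. IKZF1, a zinc finger factor of lymphoid development, spans 2 bins of chromosome 7 (50300001 to 50500000). Its level was 2.12 ± 1.03, from 0.875 in cell 1 through a median of 2.00 to 4.73 in cell 10, against 0.762 ± 0.311 in its flanks (0.210 to 1.72). It was above them in 25 cells, at a fold of 2.78, against 2.77 for TAL1 over its own flanks. With counts summed over cells the folds were 2.40 for IKZF1 and 2.59 for TAL1. Thinning every cell to 20000 counts left 19 cells above, which is short of a side. Most of its low-coordinate flank was low: the 9 bins from 49300001 to 50200000 had levels between 0.337 and 0.667, and the next bin, from 50200001, had 2.45 ± 2.84. Within the locus the bin with the start, from 50300001, averaged 2.81 ± 1.89 and the second 1.43 ± 0.824, and the first was higher in 20 cells. The second bin holds 57.1% of the gene span. Its mean was below those of both bins next to the locus, the one from 50200001 and the one from 50500001 (1.57 ± 1.84). The raised bins thus reached beyond the gene on both sides.

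SPI1, also called PU.1, an ETS factor of macrophages, granulocytes and B cells, was marked above the genome average but no more than its surroundings. Its 2 bins (chromosome 11, 47300001 to 47500000) had a level of 1.86 ± 1.17, from 0 in cells 11, 22 and 23 through a median of 1.77 to 4.52 in cell 26, against 1.78 ± 0.502 in its flanks (0.758 to 3.09). The locus was above in 13 cells and below in 13. The difference, 0.09, was -0.37 against flanks of 0.5 Mb and 0.50 against flanks of 2 Mb. The level exceeded that of 89.7% of 2-bin windows. The highest bin of the region was the one next to it, from 47200001, at 4.69 ± 2.28, and that bin was positive in all 26 cells, which none of the 20 bins of the loci was. At the far end of the same flank the bin from 46500001 had a level of 0.0856 ± 0.203 and was positive in no cell.

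CEBPA, a basic leucine zipper factor of granulocytes and their precursors, lies in 1 bin of chromosome 19 (33700001 to 33800000). The level was 2.12 ± 1.90, from 0 in cell 22 through a median of 1.54 to 7.51 in cell 13, against 1.47 ± 0.534 in the flanks (0.632 to 2.91). The locus was above in 16 cells and below in 10. The difference, 0.65, was 0.28 with every cell thinned to 20000 counts, where 11 cells were above and 15 below. Its mean owed much to cells 13, 3 and 2, at 7.51, 6.29 and 5.64, whose flanks were also high, at 2.60, 2.91 and 2.12. All of chromosome 19 was raised in cells 13 and 3, at 2.96 and 2.87, against a mean of 1.65 over cells. In cell 2 it was at 1.44. Its coefficient of variation over cells was 0.895, which includes the counting noise of 131 counts in 1 bin. Chromosome 19 was highly marked as a whole: CEBPA exceeded 92.7% of all single bins but 75.1% of those on its own chromosome. Divided by the mean of chromosome 19 in each cell, its level was 1.21 ± 0.893.

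KIT, the only receptor in the group, had the lowest level. Its 2 bins (chromosome 4, 55500001 to 55700000) averaged 1.12 ± 0.934, from 0 in cell 18 through a median of 0.880 to 5.15 in cell 26, against 0.819 ± 0.233 in the flanks (0.435 to 1.36). The second highest cell was at 2.06, and without cell 26 the mean was 0.963 and the difference from the flanks 0.17, against 0.31 with it. In cell 26 chromosome 4 as a whole had a level of 1.13, its highest of any cell. The locus was above its flanks in 14 cells and positive in 10. Against the median of the flanking bins, in place of their mean, 22 cells were above, against flanks of 2 Mb 10 cells (difference 0.09), and with the start bin alone 12 cells. With counts summed over cells the level was 0.951 and the difference 0.14. Chromosome 4 was low as a whole, with a mean level of 0.731, and KIT exceeded 67.2% of all 2-bin windows and 84.8% of those on chromosome 4. Divided by the mean of its chromosome in each cell, KIT was at 1.52 ± 0.99. RefSeq's order places the receptor genes PDGFRA and KDR on its sides.

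**Figure D3:**
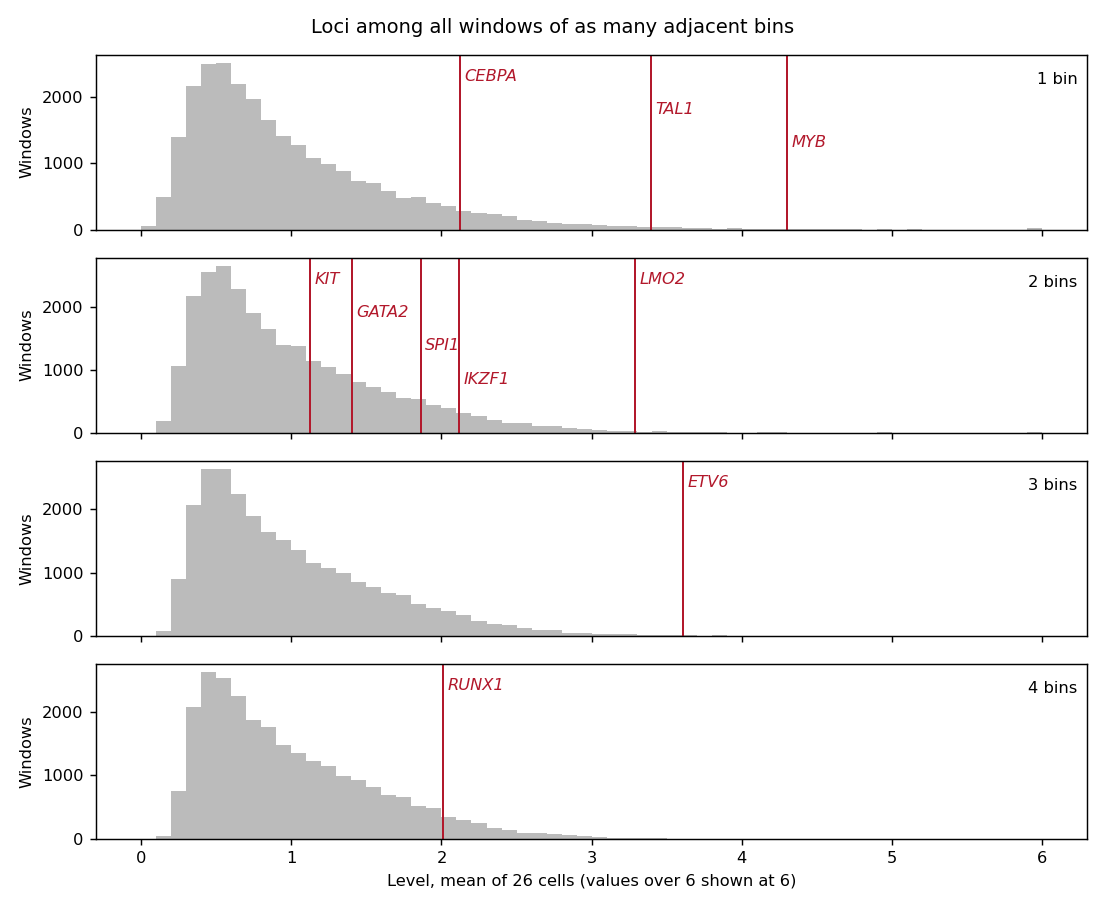
Histograms of the mean level over 26 cells for all windows of 1, 2, 3 or 4 adjacent used bins, with the loci of that size as red lines. MYB, TAL1, LMO2 and ETV6 lie in the far right tail, above 99.1% to 99.9% of windows of their size, and KIT, above 67.2%, lies nearest the bulk.

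The order of the 10 mean levels was loose. From the highest it was MYB, ETV6, TAL1, LMO2, CEBPA, IKZF1, RUNX1, SPI1, GATA2 and KIT. For each of the 9 pairs of neighbours in that order the mean difference was smaller than its SD between cells. MYB was above ETV6 in 16 cells and below in 10, ETV6 above TAL1 in 14, and TAL1 above LMO2 in 12. The widest step was between LMO2 and CEBPA, at 1.16 ± 2.40, with LMO2 higher in 19 cells. Among all 45 pairs the difference exceeded its SD in 10, each with GATA2, KIT, SPI1 or IKZF1 as the lower locus. ETV6 was above KIT in 24 cells, by 2.48 ± 1.51, and above GATA2 in 25, by 2.21 ± 1.87. Some pairs far apart in the order were within their SD: MYB was above SPI1 by 2.44 ± 2.84 and above RUNX1 by 2.29 ± 2.90.

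By the share of cells at a ratio of 1 or more, 6 of the 10 loci were positive in at least 80% of cells. TAL1, MYB, IKZF1 and ETV6 were positive in 24 cells each, LMO2 and RUNX1 in 23, SPI1 in 20, GATA2 in 18, CEBPA in 17 and KIT in 10. The same rule called 5.62% of single bins, 9.56% of 2-bin, 12.1% of 3-bin and 14.1% of 4-bin windows in the genome. Without cell 22 SPI1 joined the 6, and without the 6 cells of lowest coverage both SPI1 (17 of 20 cells) and GATA2 (16 of 20) did. With thinned counts SPI1 was in, at 21 cells, and IKZF1 out, at 20. At a ratio of 2 or more the loci positive in at least 80% of cells were TAL1, MYB, LMO2 and ETV6. Of the 20 bins of the loci 8 met the rule at a ratio of 1, as did 25 of the 200 bins in the flanks. Among the 7 loci with more than 1 bin, the bin with the start of the gene had the highest mean at 4 (GATA2, IKZF1, LMO2 and SPI1), and not at ETV6, RUNX1 and KIT. The start was taken as the outer end of the gene span. Starts inside a span were not placed in bins, and the count depends on that choice. These loci have only 2 to 4 bins, so a bin picked without regard to the start would also be highest at some. That share was not computed, and the count is a description only. At SPI1 the 2 bins differed by 0.18 ± 1.15, with the start bin higher in 13 cells and lower in 10. That start bin holds 25% of the gene span.

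**Figure D4:**
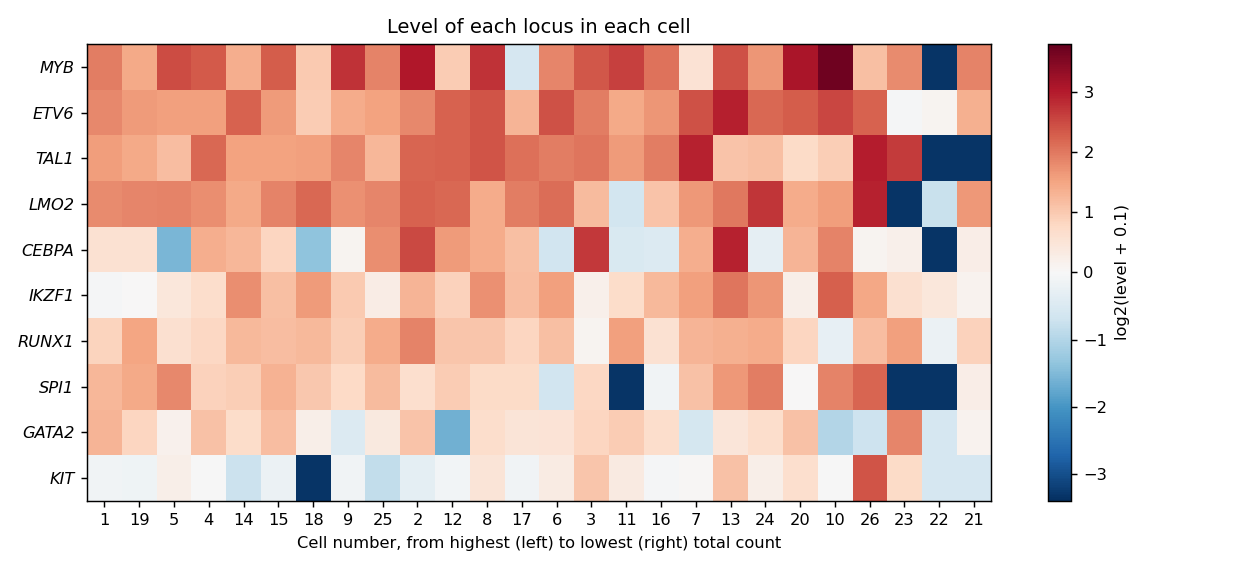
Level of each locus (rows, by mean level) in each cell (columns, by total count), as log2(level + 0.1), where dark blue is a count of 0. The top 4 rows are red in most cells, and 7 of the 9 zeros lie among the 6 cells of lowest coverage at the right.

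Cells differed in how many of the loci they had marked. The number of positive loci per cell was 7.96 ± 1.68 of 10. It was 10 in cells 8 and 13, at least 9 in 10 cells, and 1 in cell 22, where only IKZF1 was positive. Every other cell had 7 or more, so cell 22 widened that SD. In 21 cells every locus had at least 1 count. Which locus was highest also changed: MYB in 13 cells, TAL1 in 5, LMO2 and ETV6 in 3 each, and IKZF1 and CEBPA in 1 each. MYB, TAL1 and CEBPA are single bins, which scatter more between cells. Over the genome the median SD was 0.896 for single bins and 0.540 for 4-bin windows. As a description over 26 cells, the mean level of the 10 loci had a Pearson correlation of -0.019 (Spearman -0.086) with log2 total counts, and the number of positive loci one of 0.37 (Spearman 0.33). These correlations include cell 22 and were not computed without it.

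**Figure D5:**
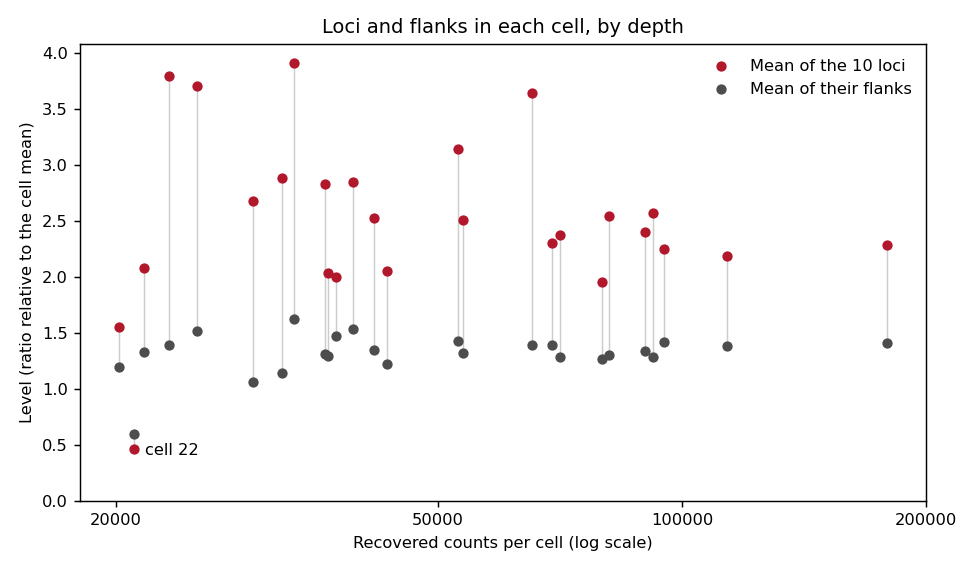
Mean level of the 10 loci (red) and of their flanks (grey) in each of 26 cells, against the recovered counts per cell on a log axis, with a line joining the 2 values of a cell. The loci lie above the flanks in 25 cells, and cell 22, at 0.462 against 0.599, is the exception.

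The spread between cells was set beside counting noise without a test. Chi-square over its degrees of freedom, for the counts of a locus against each cell's total, lay between 1.47 at GATA2 and 3.79 at ETV6, where counting noise alone averages 1 and itself scatters around it. For the same relative spread its excess over 1 grows with the counts, which were 200 at GATA2 and 762 at ETV6. The coefficient of variation was 0.517 at GATA2 and 0.424 at ETV6. CEBPA, on 131 counts, had a chi-square ratio of 3.53 and a coefficient of 0.895. The sources used here do not say how PCR copies were handled, and their part in this spread was not tested. Among the 45 pairs of loci the Pearson correlation of levels over the 26 cells had a median of 0.13 and ran from -0.36 to 0.76. Without cell 22 the median was 0.098, and 27 pairs were above 0, against 35 with it. The share above 0 among pairs of other windows was not computed, so these counts show no trait of the loci. The highest pairs over all 26 cells were LMO2 with SPI1 (0.76) and IKZF1 with ETV6 (0.64), and the lowest GATA2 with SPI1 (-0.36) and GATA2 with LMO2 (-0.35). Their Spearman correlations, in the same order, were 0.59, 0.49, -0.27 and -0.22. LMO2 and SPI1 are on the same chromosome, and after division by the mean of chromosome 11 in each cell their Pearson correlation was 0.74. These values share depth and library, rest on few counts per cell and are given as a description.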

How the data were processed

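Single-cell DamID was read from 1 deposited table of 26 cells of KBM7 clone 5-8. Each cell is 1 column, matched to its sample by number. For every 100 kb bin the authors deposited a linear ratio, taken here as observed over expected after the abbreviation in the table's name. The submitters' processing notes list cutadapt, Bowtie2 2.1.0 and build hg19. The counting of reads and the making of the expectation were not given in the sources used here.

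Of 30376 bins, 3792 had no value and 253 were 0 in all cells, which left 26331. Ratios within a bin were whole multiples of a step, so the smallest whole counts and a relative expectation per bin were recovered (tolerance 1e-07, relative). Levels, flanks and sides were computed as described with the results. The start of a gene was taken as the outer end of its span on its strand. Every bin of the loci and of their flanks had a value. Windows for the genome background needed at least 10 used flanking bins. Intervals are exact and cover counting error only. The members and lists were chosen with earlier results of these data known. All 10 members are named, bins are named by position, and the 2 highest and 2 lowest of 45 pairs of loci are given. Other haematopoietic regulators, GC content and GATC density per bin were not analysed here, since no hg19 annotation or genome was used. Alternatives changed the cells, bins, flanks, scale, depth and thresholds. The procedures were tested on simulated counts. Computations used scipy 1.17.1, pandas 2.3.3 and numpy 2.4.6, and figures matplotlib 3.10.9, under Python 3.11.15.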

Additional observations from a re-analysis of the deposited data

How the results depend on the processing

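No difference of a locus placed above its flanks changed sign under any alternative run. Of 58 recomputed summaries over the 10 loci, 57 stayed within the spread between cells or within 1.5 times the count. The exception was the number of loci positive in at least 80% of cells, 10 with positive at 0.5 or more, against 6 at a ratio of 1. These margins were wide: 4 loci above their flanks, against 6, fell within them. The log2 difference was set against a linear one, and some settings could not move some summaries. The difference of loci minus flanks stayed between 1.00 and 1.52 on the linear scale, and was 0.58 as log2 of value + 0.1, with 23 of 26 cells above 0. Loci above their flanks numbered 4 with a side set at 90% of cells (TAL1, IKZF1, ETV6 and RUNX1), 5 with thinned counts or the start bin alone, 7 with the median of the flanking bins, where KIT joined with 22 cells above, and 6 with each cell left out in turn. That last alternative, and division of pairs by chromosome means, were chosen after seeing the data. The differences at GATA2 and SPI1, on neither side, changed sign with the flanks chosen, and that of SPI1 was -0.03 without cell 26. The causes were not tested. No bin of the loci had a small expectation, so that filter changed only flanks. A count near 1 per bin in shallow cells limits any statement on a single locus in a single cell. No paired analysis was possible because all samples form 1 group, so no groups could be paired by replicate number. The comparison of a locus with its flanks was already made within each cell.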
